A study of Homo sapiens with 15 samples.

Results

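The genes CD44, CD24, EPCAM, PROM1, PROCR, THY1, LGR5, NT5E and ENG encode cell surface proteins used to mark or isolate stem and progenitor cells of the breast and of mesenchymal tissue. They were chosen by gene symbol and make up 9 of the 33158 gene symbols in the deposited expression table. Their RNA levels are described in 3 established triple negative breast cancer cell lines. In 2 of the lines the CD44 and CD24 proteins, but not the RNA values, had been used to separate cancer stem cells (CSCs) from the remaining cells (non-CSCs).

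SUM149PT cells, derived from an inflammatory breast cancer, and HCC1937 cells, derived from a primary ductal carcinoma, were stained with antibodies to CD44 and CD24 and separated by flow cytometry. The CSC group of each line held the CD44+CD24-/low cells and the non-CSC group held the other cells. SUM159PT cells, derived from an anaplastic breast carcinoma, were sequenced without sorting, and the study treated the whole line as CSCs. Each of the 5 groups had 3 libraries of poly(A)-selected RNA from cells given no drug and no genetic change according to the labels, 15 libraries in all. Each group is a population of 1 cell line, so differences between groups of different lines cannot be told apart from differences between those lines. The sources do not say whether the 3 libraries of a group came from separate cultures or sorts, so the p-values measure only the spread between these samples, which may be technical.

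The CD44+CD24-/low phenotype is widely used to enrich breast cancer cells that form tumors and spheres. CD44 binds hyaluronan and anchors the actin cytoskeleton through ezrin family proteins, whereas CD24 is a small, heavily glycosylated protein held in the membrane by a glycosylphosphatidylinositol (GPI) anchor and typical of luminal epithelial cells. EPCAM is an epithelial adhesion protein, PROM1 (CD133) marks progenitors of several epithelia, PROCR and LGR5 mark stem cells of the mouse mammary gland, and NT5E (CD73), THY1 (CD90) and ENG (CD105) together define cultured mesenchymal stromal cells.

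Levels were deposited as FPKM, fragment counts corrected for transcript length and library size, a unit in which genes of different length can be compared. The table used here holds no read counts, so sequencing depth is not known and precision rests on the 3 libraries of a group. Between 2 and 5 of 87 ribosomal protein genes were listed at 0 in each library, so a value of 0 is given only as listed. Fold changes from the fits are on the scale of log2(FPKM + 0.1), which understates changes of genes with low levels, and a gene counts as called when its limma p, adjusted over the genes tested by the Benjamini-Hochberg method, was no more than 0.05.

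The labelled cell type was compared with marker genes. PTPRC, the pan-leukocyte marker, did not exceed 0.0986 FPKM, and CD3E and HLA-DRA were listed at 0 in all 15 libraries. The summed level of 8 haematopoietic markers was nonetheless 48.99 to 53.2 FPKM in SUM149PT non-CSCs, 2.55 to 3.17 in SUM149PT CSCs, 54.2 to 65.9 in HCC1937 CSCs, 29.5 to 33.7 in HCC1937 non-CSCs and 17.06 to 20.1 in SUM159PT. CD14 was the most abundant of them in each library, and the sum was lower in the CSCs of SUM149PT but higher in those of HCC1937. The 7 endothelial markers summed to at most 2.16 FPKM in any library. Of the receptors that define the triple negative class, ESR1 was at 0.00687 to 1.67 FPKM by group mean, PGR was listed at 0 in 14 libraries, and ERBB2 was at 3.55 to 19.1 FPKM by group mean.

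CD24 and CD44 are the proteins that defined the sort, so their RNA serves as a check of the group labels, and CD24 changed the more. Its level in SUM149PT CSCs was 7.97, 7.64 and 7.61 FPKM in replicates 1, 2 and 3, and in SUM149PT non-CSCs it was 146.8, 137.4 and 134.3. In HCC1937 it was 23.6, 22.5 and 23.9 FPKM in CSCs and 166.5, 141.4 and 142.2 in non-CSCs. SUM159PT had 0.759, 0.682 and 0.745 FPKM. Each CSC library lay below each non-CSC library of its line, in the direction of the labels, and SUM159PT lay below both CSC groups.

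CD24 RNA was 18.03-fold lower in SUM149PT CSCs than in non-CSCs (log2 fold change -4.15, SE 0.0605, adjusted p = 1.4e-06). In HCC1937 it was 6.42-fold lower (log2 fold change -2.67, SE 0.0892, adjusted p = 0.000128). In bulk RNA, fewer cells that express a gene and less of its RNA per cell cannot be told apart, here and for the other members. The table also lists the near-identical gene copies CD24P4, at up to 4.3 FPKM, and CD24P2, at up to 0.507 FPKM. Reads of CD24 may have been divided among them, and with the 3 entries summed, as chosen after seeing the data, the log2 fold changes were -4.16 and -2.67.

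CD44, the other sorted protein, differed far less. Its level in SUM149PT CSCs was 83.45, 82.9 and 86.8 FPKM, against 66.96, 65.3 and 61.4 in non-CSCs. In HCC1937 CSCs it was 113, 100.4 and 105.6 FPKM, against 95.98, 95.1 and 102.4 in non-CSCs. In FPKM as deposited the SUM149PT groups did not overlap, whereas those of HCC1937 did. Both groups of both lines lay above SUM159PT, with 28.55, 29.4 and 28.4 FPKM. With each library rescaled to the same sum (TPM rescaling), the HCC1937 groups did not overlap either, at 321.4 to 344.7 in CSCs and 259.6 to 310 in non-CSCs.

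CD44 rose 1.31-fold in SUM149PT CSCs (log2 fold change 0.39, SE 0.0597, adjusted p = 0.00168). In HCC1937 the log2 fold change was 0.12 (95% interval -0.07 to 0.31, adjusted p = 0.314), did not pass the test and lay between 0.12 and 0.24 over 10 alternatives and between 0.07 and 0.16 when 1 library was left out. CD44, PROCR, THY1, LGR5 and ENG each share exon sequence with a gene on the opposite strand (for CD44, CD44-AS1), and PROM1 with FGFBP2 on its own strand, while the use of strand in counting is not given in the sources used here. CD44 also has 39 annotated transcripts, and the table holds 1 value per gene, so its variant and standard forms were not separated.

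**Figure D1:**
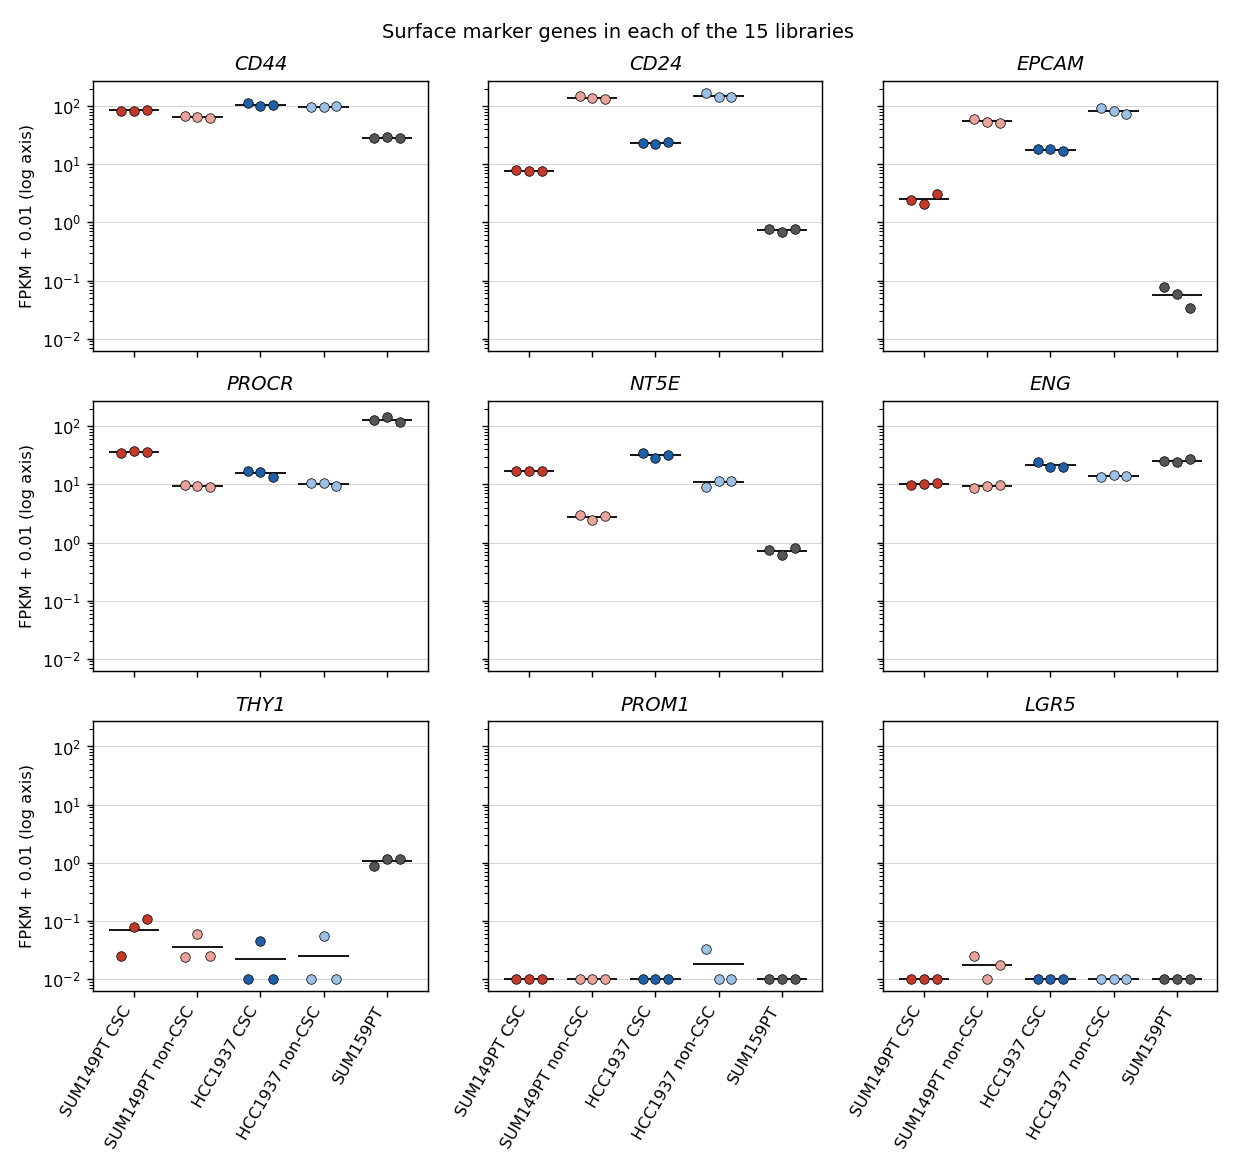
Level of each of the 9 genes in each library, as FPKM + 0.01 on a log axis, with 3 points per group (replicates 1 to 3 from left to right) and a bar at the group mean. CD24 and EPCAM lie lower in CSCs than in non-CSCs of both sorted lines, PROCR and NT5E lie higher, and PROM1 and LGR5 lie at or near 0.01, the position of a listed 0.

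The ratio of CD44 to CD24 within a library does not depend on the scaling between libraries. It was 10.47, 10.8 and 11.4 in SUM149PT CSCs against 0.456, 0.475 and 0.457 in non-CSCs, and 4.79, 4.46 and 4.41 in HCC1937 CSCs against 0.577, 0.673 and 0.72 in non-CSCs. The ratio exceeded 1 in each CSC library and was under 1 in each non-CSC library. The mean log2 ratio, taken after adding 0.1 FPKM to both genes, was higher in CSCs by 4.54 in SUM149PT and by 2.79 in HCC1937, each with a two-sided exact permutation p = 0.1, the smallest that 3 against 3 libraries allow. With labels permuted within lines over 400 arrangements, the joint difference of 3.67 had an exact p = 0.005, the smallest they can give. SUM159PT had ratios of 37.6, 43.1 and 38.1, above those of each sorted library, and its CD44 was the lowest of the 5 groups while its CD24 was lower still.

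**Figure D2:**
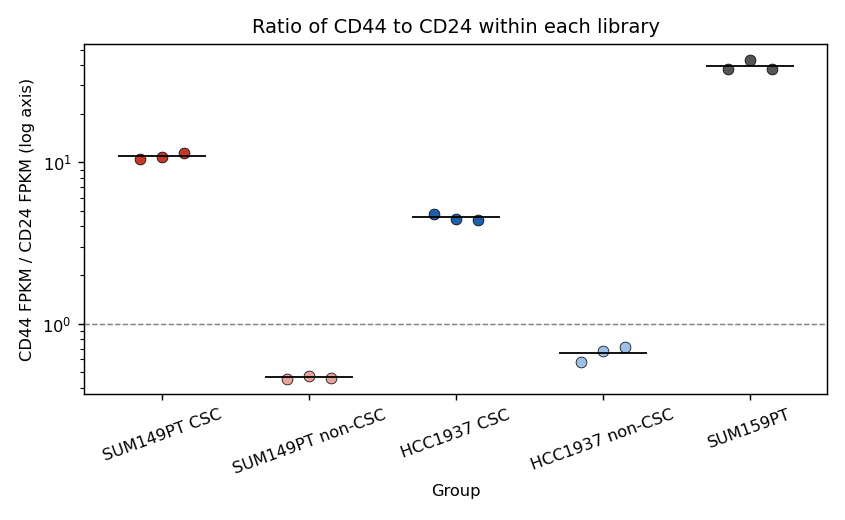
CD44 FPKM divided by CD24 FPKM in each library on a log axis, with a bar at the mean of each group of 3 and a dashed line at a ratio of 1. CSC libraries of the sorted lines sit between 4.41 and 11.4, non-CSC libraries between 0.456 and 0.72, and SUM159PT between 37.6 and 43.1.

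CD24, PROCR and NT5E changed between fractions of both lines, in opposite directions, and sequences at annotated starts of theirs are shown so that they can be compared. They were taken from RefSeq on build GRCh38.p14, as windows of 300 bases around an annotated start, 5′ to 3′ on the strand of the gene, and 6 of the 9 members had an entry. EPCAM, THY1 and LGR5 had none. Capitals mark matches, on either strand, to CACCTG (an E-box), TGANTCA (bound by AP-1 proteins) or CATTCC (bound by TEAD proteins), which occur in 20.6%, 7.7% and 14.0% of 35116 such promoters. The first CD24 window lies at chr6:106975578-106975877 on the reverse strand, at the start that GENCODE release 29 gives for the gene, and holds no match. Another of the 3 CD24 windows, whose start lies 162 bases into the gene, holds none either and is not shown. The third, from a start 1588 bases into the gene, lies at chr6:106973990-106974289 on the reverse strand and holds 1 match to CACCTG, read as CAGGTG, and 1 to CATTCC, read as GGAATG. The PROCR window at chr20:35171822-35172121, 1 base from the GENCODE start of the gene, and the NT5E window at chr6:85449833-85450132, from a start 499 bases away from it, are both on the forward strand and hold no match. The matches are letters in these windows, and binding was not measured.
CD24 at the gene start: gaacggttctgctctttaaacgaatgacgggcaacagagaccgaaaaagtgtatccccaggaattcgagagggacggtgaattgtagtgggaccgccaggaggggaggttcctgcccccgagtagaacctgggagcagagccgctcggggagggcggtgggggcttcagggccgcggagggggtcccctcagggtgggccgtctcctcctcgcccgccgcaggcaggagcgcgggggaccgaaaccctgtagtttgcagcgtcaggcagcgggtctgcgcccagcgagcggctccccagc
CD24 at the inner start: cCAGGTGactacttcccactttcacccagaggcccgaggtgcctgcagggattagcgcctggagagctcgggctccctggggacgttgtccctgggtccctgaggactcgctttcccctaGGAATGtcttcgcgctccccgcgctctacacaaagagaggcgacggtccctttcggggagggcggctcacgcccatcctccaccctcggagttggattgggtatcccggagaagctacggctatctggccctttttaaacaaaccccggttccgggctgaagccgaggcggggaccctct
PROCR: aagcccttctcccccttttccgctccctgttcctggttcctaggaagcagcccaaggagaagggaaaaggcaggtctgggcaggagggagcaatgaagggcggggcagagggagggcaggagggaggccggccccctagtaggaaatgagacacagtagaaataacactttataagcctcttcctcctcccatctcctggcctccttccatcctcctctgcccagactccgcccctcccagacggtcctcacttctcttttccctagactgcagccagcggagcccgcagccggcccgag
NT5E: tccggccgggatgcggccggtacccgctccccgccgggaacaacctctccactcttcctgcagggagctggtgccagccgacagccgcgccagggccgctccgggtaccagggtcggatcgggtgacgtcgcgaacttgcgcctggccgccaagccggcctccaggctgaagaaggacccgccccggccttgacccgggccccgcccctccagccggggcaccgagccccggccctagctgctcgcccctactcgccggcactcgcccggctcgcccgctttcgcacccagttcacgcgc

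EPCAM, whose protein joins epithelial cells and is cleaved to release a signaling fragment, was not used in the sort. Its level in SUM149PT CSCs was 2.39, 2.03 and 3.03 FPKM, against 60.3, 53.8 and 52.1 in non-CSCs. In HCC1937 CSCs it was 18.1, 18.3 and 16.75 FPKM, against 93.1, 83.3 and 74.45 in non-CSCs. SUM159PT had 0.0683, 0.0486 and 0.0233 FPKM. The 5 groups did not overlap anywhere in the order HCC1937 non-CSC, SUM149PT non-CSC, HCC1937 CSC, SUM149PT CSC and SUM159PT, from highest to lowest.

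EPCAM was 22.3-fold lower in SUM149PT CSCs (log2 fold change -4.44, SE 0.154, adjusted p = 5.66e-06) and 4.72-fold lower in HCC1937 CSCs (log2 fold change -2.23, SE 0.103, adjusted p = 0.000185). Other epithelial genes moved with it. The summed level of 9 epithelial markers, each of which was above 0 in each library, was 513.6, 537.4 and 505.1 FPKM in SUM149PT CSCs and 3361, 3282 and 3318 in non-CSCs. It was 1223, 1123 and 1035 FPKM in HCC1937 CSCs and 2814, 2848 and 2436 in non-CSCs, and 1307, 1174 and 1324 in SUM159PT. KRT7 was the most abundant of them in each group except SUM149PT non-CSCs, where KRT19 was. In SUM159PT KRT7, at 979.9 ± 73.3 FPKM (SD, n = 3), made up most of the sum, while CDH1, CLDN4, KRT5, KRT14, KRT17 and KRT19 were lower there than in the other 4 groups by mean. KRT7 itself had its highest group mean there. The SUM159PT means of KRT8 and KRT18, 132 and 153.1 FPKM, exceeded those of SUM149PT CSCs (36.4 and 40.9) and were below those of the remaining groups. CDH1, which encodes E-cadherin, was at 3.32 ± 0.266 FPKM (SD, n = 3) in SUM149PT CSCs and 78.3 ± 4.02 (SD, n = 3) in non-CSCs. The part of the epithelial list in the EPCAM and CD24 results was not tested.

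PROCR, the endothelial protein C receptor, was higher in CSCs. Its level in SUM149PT CSCs was 34.4, 37.5 and 36.6 FPKM, against 9.7, 9.37 and 8.98 in non-CSCs. In HCC1937 CSCs it was 16.9, 16.3 and 13.6 FPKM, against 10.44, 10.46 and 9.4 in non-CSCs. In each line the CSC libraries lay above the non-CSC libraries, the non-CSC groups of both lines overlapped each other, and SUM159PT stood highest with 129.3, 142.7 and 119.9 FPKM.

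PROCR rose 3.87-fold in SUM149PT CSCs (log2 fold change 1.94, SE 0.0629, adjusted p = 4.51e-06) and 1.55-fold in HCC1937 CSCs (log2 fold change 0.62, SE 0.108, adjusted p = 0.0106). GENCODE release 29 places the gene at chr20:35172073-35216240 on GRCh38, on the forward strand.

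NT5E, the enzyme that turns extracellular AMP into adenosine, was the member with the largest rise in both lines. Its level in SUM149PT CSCs was 16.8, 16.9 and 17.2 FPKM, against 2.93, 2.44 and 2.87 in non-CSCs. In HCC1937 CSCs it was 34.4, 28.2 and 32.2 FPKM, against 9.18, 11.7 and 11.6 in non-CSCs. No CSC library reached down to the non-CSC range of its line. In SUM159PT, by contrast, NT5E was at 0.727, 0.599 and 0.798 FPKM, below each sorted library.

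NT5E rose 6.18-fold in SUM149PT CSCs (log2 fold change 2.59, SE 0.0834, adjusted p = 4.43e-06) and 2.92-fold in HCC1937 CSCs (log2 fold change 1.54, SE 0.132, adjusted p = 0.000946). It lies at chr6:85449584-85495791 on GRCh38, on the forward strand of the chromosome that also carries CD24, at chr6:106969831-106975627.

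ENG, a coreceptor for transforming growth factor beta and bone morphogenetic proteins, was at 9.75, 10.3 and 10.47 FPKM in SUM149PT CSCs and 8.53, 9.505 and 9.73 in non-CSCs. In HCC1937 it was at 23.9, 20.3 and 19.9 FPKM in CSCs and 13.4, 14.3 and 13.9 in non-CSCs. The HCC1937 groups stood well apart, while the lowest SUM149PT CSC library exceeded the highest non-CSC library by less than the spread within either group. ENG rose 1.54-fold in HCC1937 CSCs (log2 fold change 0.62, SE 0.093, adjusted p = 0.00641). In SUM149PT its log2 fold change of 0.14 (95% interval -0.05 to 0.32, adjusted p = 0.142) did not pass the test, and with upper quartile scaling, where it was 0.22, it did (adjusted p = 0.0405, range 0.0405 to 0.174 over 10 alternatives). Leaving out 1 library gave 0.08 to 0.17 (adjusted p up to 0.332).

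NT5E and ENG, with THY1, are also found on fibroblasts. The summed level of 8 fibroblast or stromal markers was 243.6, 246 and 240.6 FPKM in SUM149PT CSCs and 71.4, 72.4 and 74.4 in non-CSCs. It was 16.1, 15.6 and 15.3 FPKM in HCC1937 CSCs, 6.87, 8.79 and 8.9 in non-CSCs and 42.6, 47.7 and 45.7 in SUM159PT. COL1A1, at 216 ± 2.81 FPKM (SD, n = 3) in SUM149PT CSCs, was the most abundant in each group. COL1A2, which encodes the partner chain of the same collagen, was at 0.102 ± 0.0336 FPKM (SD, n = 3) there. In SUM149PT CSCs against non-CSCs, COL3A1 was at 9.56 ± 0.123 against 1.92 ± 0.18 FPKM, PDGFRA at 4.98 ± 0.324 against 0.497 ± 0.136 and PDGFRB at 9.07 ± 0.0931 against 0.978 ± 0.183 (SD, n = 3). In HCC1937 these genes were near 0, COL3A1 at 0.0706 against 0.0347 FPKM, PDGFRA at 0.00882 against 0 and PDGFRB at 0.082 against 0.0269. LUM was at 0.165 against 0.391 FPKM in SUM149PT and 0.243 against 0.0384 in HCC1937. FAP was at 1.71 ± 0.12 against 3.64 ± 0.308 FPKM in SUM149PT, and at 3.33 ± 0.418 against 1.1 ± 0.378 in HCC1937 (SD, n = 3). DCN, which encodes decorin, was at 1.8 ± 0.134 FPKM (SD, n = 3) in SUM149PT CSCs against 16.2 ± 1.41 (SD, n = 3) in non-CSCs, and was listed at 0 in HCC1937 non-CSCs. The part of the stromal list in the NT5E, PROCR and ENG results was not tested.

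THY1, PROM1 and LGR5 had a mean under 0.1 FPKM in both sorted lines and were not tested between fractions. THY1, a GPI-anchored protein of fibroblasts and neurons, was at 0.0153, 0.0668 and 0.0976 FPKM in SUM149PT CSCs and 0.0135, 0.0494 and 0.0151 in non-CSCs. In HCC1937 it was listed at 0 in 2 libraries of each fraction, with 0.0349 FPKM in replicate 2 of the CSCs and 0.0455 in replicate 2 of the non-CSCs. These groups overlapped, and SUM159PT stood above them with 0.867, 1.13 and 1.13 FPKM.

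PROM1, a protein of membrane protrusions, was listed at 0 in 14 libraries and at 0.0232 FPKM in replicate 1 of the HCC1937 non-CSCs. LGR5, a receptor for R-spondins, was listed at 0 in 13 libraries and at 0.0149 and 0.00733 FPKM in replicates 1 and 3 of the SUM149PT non-CSCs. With depth unknown, these values do not show that the genes are silent.

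Across the members, the comparison of fractions called 3 genes higher in SUM149PT CSCs (CD44, PROCR and NT5E), where 33.3% of 16037 genes were called higher, and 2 lower (CD24 and EPCAM), where 41.5% were called lower. In HCC1937 CSCs 3 were called higher (PROCR, NT5E and ENG), where 10.3% of 15582 genes were called higher, and 2 lower (CD24 and EPCAM), where 15.3% were called lower. Without replicate 1 of the HCC1937 non-CSCs, 1049 genes were called higher and 1660 lower, in place of 1607 and 2378. Of the 9 members, 6 were tested in each line and 3 fell under the expression minimum, so the member counts do not describe the whole group. When a log2 fold change of 1 or more in either direction was also required, 4 members were called in SUM149PT (PROCR, NT5E, CD24 and EPCAM), beside 34.9% of genes, and 3 in HCC1937 (NT5E, CD24 and EPCAM), beside 8.71%.

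With an adjusted p no higher than 0.0001 in addition, PROCR, NT5E, CD24 and EPCAM were called in SUM149PT, 4 members beside 20.5% of genes. All 4 of these calls were lost with the replicate number fitted as a block (limma adjusted p = 0.000446, 0.000369, 0.000339 and 0.000385). In HCC1937 limma called 0 members and 0% of genes at these cutoffs, as the smallest adjusted p over all genes was 0.000128. This depended on the fit, as CD24 and EPCAM passed there with a pseudocount of 1 FPKM (adjusted p = 6.75e-06 and 1.14e-05), an expression minimum of 1 FPKM (1.26e-05 and 2.2e-05), trend and robust eBayes (1.59e-06 and 2.86e-06) and all 15 libraries (6.92e-10 and 2.25e-07). NT5E passed under the last 2 of these (4.53e-05 and 1.06e-06). The share of all genes passing these cutoffs under those fits was not counted, so these passes cannot be set beside the 0%. At a limma adjusted p of 0.05, fitting all 15 libraries called 2082 genes higher and 2989 lower in HCC1937, in place of 1607 and 2378. At an unadjusted p of at most 0.05, 5 members and 5886 genes passed in HCC1937 fitted alone. The median log2 fold change over all genes tested was -0.11 in SUM149PT and -0.03 in HCC1937. Quantile normalization moved the first to 0.10 and the share of calls that were higher from 44.6% to 54.9%. TPM rescaling moved the second to 0.09 and that share from 40.3% to 56.1%, and quantile normalization moved the share to 53%. The log2 fold changes of CD24, EPCAM, PROCR and NT5E in both lines were larger than these shifts.

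**Figure D3:**
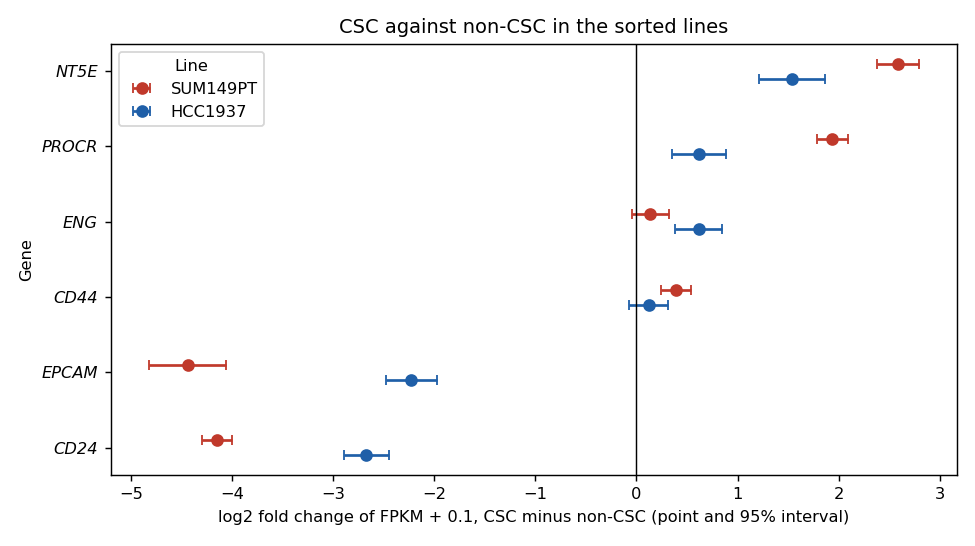
Log2 fold change of FPKM + 0.1 between CSCs and non-CSCs for the 6 members tested, with 95% intervals from limma on 3 against 3 libraries in each line. The intervals of CD24 and EPCAM lie below 0 and those of PROCR and NT5E above 0 in both lines, while ENG in SUM149PT and CD44 in HCC1937 have intervals that include 0.

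The size of the CSC effect in SUM149PT and HCC1937 was compared with an interaction term over the 12 sorted libraries. All 6 members tested passed, beside 61.1% of 16451 genes. The fall of EPCAM was larger in SUM149PT by 2.21 on the log2 scale (difference -2.21, adjusted p = 5.72e-06), and that of CD24 by 1.48 (difference -1.48, adjusted p = 1.28e-06). The rise of PROCR was larger in SUM149PT by 1.32 (adjusted p = 9.56e-06) and that of NT5E by 1.05 (adjusted p = 0.00028). For ENG the difference was -0.48 (adjusted p = 0.00488), with the larger effect in HCC1937.

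For CD44 the difference between lines was 0.27 (adjusted p = 0.0248). It no longer passed with quantile normalization (0.26, adjusted p = 0.0611) or TPM rescaling (0.19, adjusted p = 0.193), against a range of 0.00535 to 0.193 over 9 alternatives. Nor did it pass without replicate 3 of the SUM149PT CSCs (adjusted p = 0.0602), replicate 3 of the SUM149PT non-CSCs (0.0572), replicate 2 of the HCC1937 CSCs (0.0594) or replicate 3 of the HCC1937 non-CSCs (0.0557).

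The same fraction was also compared between lines, over all 15 libraries. THY1 passed the expression minimum here only through its level in SUM159PT, so its tests are not given, and PROM1 and LGR5 did not pass. The other 6 members all differed between the CSCs of HCC1937 and SUM149PT, beside 76.9% of 16373 genes. EPCAM was 7.13-fold higher in HCC1937 CSCs (log2 fold change 2.80, adjusted p = 2.21e-09), CD24 3.02-fold (1.58, adjusted p = 7.8e-10) and ENG 2.10-fold (1.06, adjusted p = 1.14e-07). NT5E was 1.86-fold higher (0.89, adjusted p = 2.2e-05) and CD44 1.26-fold (0.33, adjusted p = 0.000319). PROCR was 2.32-fold lower (-1.21, adjusted p = 8.46e-08). The CD44 value lay between 0.16 and 0.33 over 10 alternatives. The median over all genes in this contrast was 0.22, against 0.05 after quantile normalization.

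Between the non-CSCs, 4 of these 6 differed, beside 76.8% of genes. NT5E was 3.94-fold higher in HCC1937 (log2 fold change 1.93, adjusted p = 1.45e-08), CD44 1.52-fold (0.60, adjusted p = 1.67e-06) and ENG 1.499-fold (0.58, adjusted p = 3.48e-05). EPCAM was 1.51-fold higher (0.59, adjusted p = 0.00264), a call lost with a pseudocount of 0.01 FPKM (adjusted p = 0.0513, the highest of 10 alternatives whose lowest was 0.000105). CD24 (0.10, adjusted p = 0.224) and PROCR (0.11, adjusted p = 0.298) did not pass. The CD24 and PROCR levels of the non-CSC groups overlapped, and the sign of both differences changed with the scaling.

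SUM159PT was compared with each sorted CSC group. The same 6 members were all called against SUM149PT CSCs, beside 81.7% of genes, and against HCC1937 CSCs, beside 84.8%, so that a call alone says little about a member here. EPCAM was 53.2-fold lower than in SUM149PT CSCs and 379.3-fold lower than in HCC1937 CSCs as a ratio of mean FPKM, over a SUM159PT mean of 0.0468 FPKM, where the fitted log2 fold changes after adding 0.1 FPKM were smaller (-4.13 and -6.94). NT5E was 24.0-fold and 44.6-fold lower, CD24 10.6-fold and 32.04-fold lower, and CD44 2.93-fold and 3.70-fold lower. PROCR was 3.61-fold and 8.37-fold higher. THY1, at 1.05 ± 0.154 FPKM (SD, n = 3), lay above each sorted library.

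The libraries of SUM159PT differed from the others in more than these genes. Their FPKM summed to 634746 to 652082 against 291276 to 366532 in the sorted libraries. Over 14188 genes, whose levels depend on one another, the log2 fold change followed GC content (Spearman's rho 0.593 against SUM149PT CSCs and 0.512 against HCC1937 CSCs). CD44, CD24, EPCAM and NT5E, the members lower in SUM159PT, have 45.2% to 47.0% GC in their longest annotated transcript, under the median gene at 48.8%. PROCR at 52.5%, THY1 at 57.4% and ENG at 63.3% lie above that median.

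The median log2 fold change over all genes was -0.60 against SUM149PT CSCs and -0.85 against HCC1937 CSCs, and TPM rescaling moved these to -1.63 and -1.83. The share of calls that were higher went from 34.7% and 32.5% to 17.3% and 17.1% with that rescaling, was 50.1% and 50.3% with upper quartile scaling, 50.6% and 50.1% with quantile normalization, and 49.4% and 49.8% with the GC trend removed. After removal of the trend with GC content, CD44 differed by -0.17 from SUM149PT CSCs (adjusted p = 0.0241) and by -0.31 from HCC1937 CSCs (adjusted p = 0.000461), in place of -1.55 and -1.88. It was -2.64 and -2.89 with TPM rescaling, and -0.59 and -0.75 with upper quartile scaling. EPCAM, CD24 and NT5E were still lower by at least 1.97 in both contrasts with the GC trend removed (CD24 -1.97 and -3.36, EPCAM -3.10 and -5.70, NT5E -3.00 and -3.70). PROCR was then still higher, by 1.92 and 3.36, and by 0.76 and 2.06 with TPM rescaling. Over the alternatives that kept all libraries, the values against SUM149PT CSCs ranged from -4.38 to -1.75 for CD24, -5.59 to -1.73 for EPCAM, -5.56 to -3.00 for NT5E and 0.76 to 2.81 for PROCR. Those against HCC1937 CSCs ranged from -8.37 to -4.16 for EPCAM and 2.06 to 4.19 for PROCR.

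ENG was at 25.2, 23.8 and 27.1 FPKM in SUM159PT and overlapped the HCC1937 CSCs. Its log2 fold change against that group was 0.25 (adjusted p = 0.0135) as deposited, 1.38 with upper quartile scaling (adjusted p = 1.93e-09), -0.75 with TPM rescaling (adjusted p = 2.03e-06) and -0.16 with the GC trend removed (adjusted p = 0.0908, the highest of 10 alternatives). The call was also lost without replicate 2 (adjusted p = 0.0515) or replicate 3 (0.0579) of the HCC1937 CSCs, or without replicate 3 of SUM159PT (0.0547). Against SUM149PT CSCs it was 1.31 as deposited, 0.23 with TPM rescaling, 0.65 with the GC trend removed and 2.27 with upper quartile scaling. The part of the FPKM sums and of GC content in the SUM159PT results was not tested beyond these values.

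**Figure D4:**
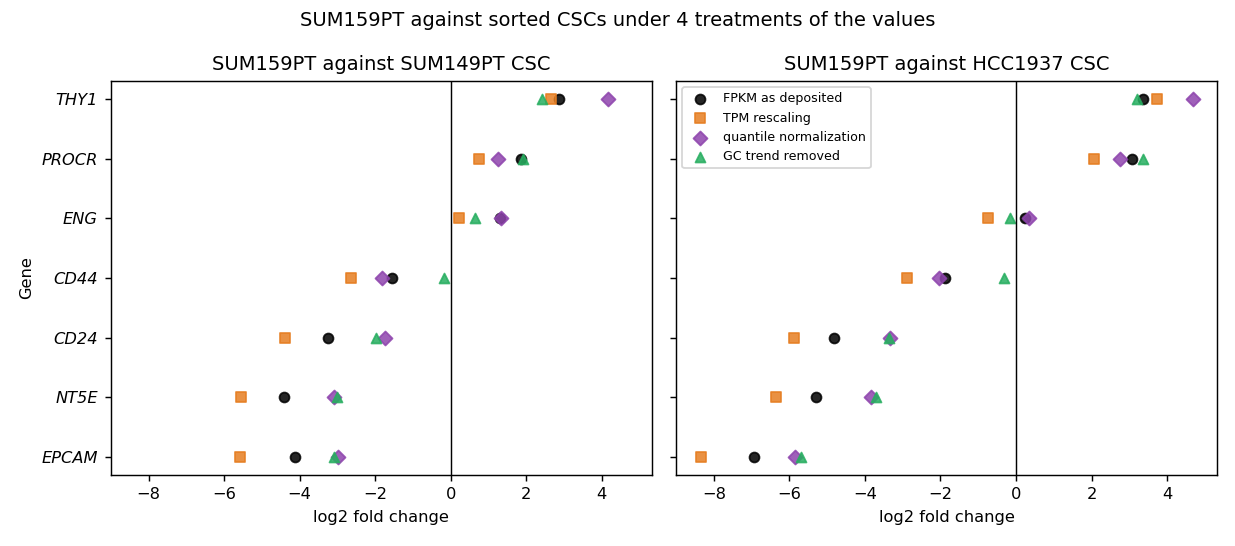
Log2 fold change of 7 members in SUM159PT against SUM149PT CSCs (left) and HCC1937 CSCs (right), under the deposited values and 3 other treatments. ENG changes sign against HCC1937 CSCs, CD44 moves to -0.17 and -0.31 when the trend with GC content is removed, and CD24, EPCAM, PROCR and NT5E keep their direction under these treatments. THY1 is shown as a description, since it entered the fit only through SUM159PT.

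Genes that work with the members were read from lists, as counts of called genes and the median log2 fold change of each list. Over all genes 33.3% were called higher and 41.5% lower in SUM149PT CSCs (median -0.11), and 10.3% and 15.3% in HCC1937 CSCs (median -0.03), and the counts are to be read beside these shares. The genes tested also include some that passed the expression minimum only through the fraction where they were high. Beside those named below, they are CXCR4, HAS1, LGR6, RSPO3 and TSPAN8 in SUM149PT and ABCG2, ALPL and SPP1 in HCC1937. Their tests stay in the counts and medians but are not used further. Of 12 genes in EPCAM processing and partnership, 3 were higher and 8 lower in SUM149PT CSCs (median log2 fold change -1.05), and of 11 tested in HCC1937, 0 were higher and 4 lower (median -0.18). CLDN7, a tight junction protein that binds EPCAM, fell (log2 fold changes -4.82 and -1.82), as did ST14, the protease matriptase (-4.40 and -2.66). SPINT2, an inhibitor of that protease, fell as well (-4.33 and -1.06).

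Among 17 other stem and progenitor surface markers, 9 of 15 tested were higher and 6 lower in SUM149PT CSCs (median 0.63), and 6 of 14 were higher and 3 lower in HCC1937 CSCs (median 0.08). ITGB3, the integrin beta chain found on luminal progenitors in mice, rose by 3.05 and 1.96. MUC1, a luminal mucin, fell (-2.56 and -1.41), and so did the tetraspanin CD9 (-3.14 and -1.03). MCAM moved in opposite directions (-0.42 and 1.57), as did ALCAM (-0.37 and 0.31), whose HCC1937 call was lost when any 1 of 5 libraries was left out (adjusted p up to 0.0854) and with the replicate number fitted as a block (the replicate block, 0.0706).

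Of 14 CD44 ligands and partners tested in SUM149PT, 5 were higher and 7 lower (median -0.29), and of 12 tested in HCC1937, 2 were higher and 3 lower (median 0.13). The SUM149PT count of higher genes was 3 at an expression minimum of 1 FPKM. The HCC1937 count was 1 under 4 alternatives, among them TPM rescaling, and without any 1 of 5 libraries, and 5 were lower when all 15 libraries were fitted. HAS2, a hyaluronan synthase, fell in SUM149PT CSCs (-2.47, from 13.5 to 2.37 FPKM). In HCC1937 it was at 0.17, 0.29 and 0.234 FPKM in CSCs and 0.0113, 0.051 and 0.0802 in non-CSCs, and passed the expression minimum only through the CSCs, so its test there, 1 of the 2 counted as higher, is not used further. The synthase HAS3 was at 8.13 ± 0.179 FPKM in SUM149PT CSCs and 5.94 ± 0.345 in non-CSCs, and at 10.6 ± 0.831 in HCC1937 CSCs and 33.3 ± 1.47 in non-CSCs (SD, n = 3). CD74, which signals with CD44, rose in SUM149PT (0.97) and fell in HCC1937 (-1.66), and the SUM149PT call was lost without any 1 of 4 libraries (adjusted p up to 0.069).

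The protein C and thrombin receptor list, to which PROCR belongs by function, had 7 genes higher and 4 lower of 11 in SUM149PT CSCs (median 0.92), and 5 higher and 2 lower of 9 in HCC1937 CSCs (median 0.43). PROC, at 0.279 FPKM in SUM149PT CSCs and 0.0854 in non-CSCs, passed the expression minimum there only through the CSCs. Its test in SUM149PT, counted as higher, is not used further. At an expression minimum of 1 FPKM 3 were higher in HCC1937. F2R, the thrombin receptor PAR1 that PROCR helps activated protein C to cleave, rose by 3.00 and 1.04, in HCC1937 from 0.284 to 0.683 FPKM. The related receptor F2RL1 was at 15.7 ± 1.61 FPKM in SUM149PT CSCs and 10.4 ± 0.568 in non-CSCs, but at 2.58 ± 0.184 in HCC1937 CSCs and 7.63 ± 0.19 in non-CSCs (SD, n = 3). PROS1, the cofactor of activated protein C, rose by 1.34 and 1.64, and TFPI, an inhibitor of the tissue factor pathway, by 2.22 and 0.43. F3, tissue factor itself, fell (-1.32 and -0.59). The sphingosine phosphate receptors S1PR3 (-2.35 and 1.32) and S1PR1 (-2.61 and 0.84) moved in opposite directions, and the HCC1937 call of S1PR1 was lost without replicate 1 of the non-CSCs (adjusted p = 0.0599) and with the replicate block (0.0648).

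In the extracellular adenosine pathway of NT5E, 4 of 11 genes were higher and 6 lower in SUM149PT CSCs (median -0.60), and 3 of 10 were higher and 3 lower in HCC1937 CSCs (median -0.00). In SUM149PT, ENPP1, counted as higher, and ENTPD3, counted as lower, owed their place among the genes tested to the fraction where they were high. Their tests stay in the count and median but are not used further. ENTPD2, which degrades extracellular ATP upstream of NT5E, fell (-4.33 and -1.71). Of the nucleoside transporters, SLC29A2 fell (-1.79 and -0.70) and SLC29A1 rose by 0.51 and 0.77. DPP4, which binds adenosine deaminase, was at -0.60 and 0.44. Its SUM149PT call was lost under several alternatives, with a value of 0.00 after quantile normalization (adjusted p = 0.985), and was lost on leaving out any 1 of 5 libraries (adjusted p up to 0.104). Its HCC1937 call was lost without replicate 2 of the non-CSCs (adjusted p = 0.0531), with the replicate block (0.0513) and when all 15 libraries were fitted (0.118).

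Of the ligands, receptors and effectors of endoglin, 8 of 12 were higher and 4 lower in SUM149PT CSCs (median 0.63), and 6 of 13 were higher and 1 lower in HCC1937 CSCs (median 0.28). The count of lower genes in HCC1937 was 0 with TPM rescaling and without replicate 2 of the HCC1937 CSCs, and 2 when all 15 libraries were fitted. TGFBR2, the type II receptor for transforming growth factor beta, rose by 2.19 and 1.19, the coreceptor TGFBR3 by 2.18 and 0.63, and the ligand TGFB1 by 0.74 and 1.29. SMAD5, which carries bone morphogenetic protein signals, rose by 0.79 and 0.37, and its HCC1937 call was lost without any 1 of 5 libraries (adjusted p up to 0.12), with TPM rescaling (0.0502) and with the replicate block (0.0862). TGFBR1 (-0.46 and 0.69) and TGFB2 (-3.52 and 0.44) moved in opposite directions, the HCC1937 call of TGFB2 being lost without any 1 of 4 libraries (adjusted p up to 0.0818) and with the replicate block (0.0645).

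In the LGR5 and R-spondin pathway, 1 of 8 genes was higher and 5 lower in SUM149PT CSCs (median -0.66), and 3 of 7 were higher and 1 lower in HCC1937 CSCs (median -0.02). The SUM149PT genes tested include LGR6 (0.0589 FPKM in CSCs, 1.96 in non-CSCs) and RSPO3 (0.0538 and 0.952). As given above, these passed the expression minimum only through the fraction where they were high, the non-CSCs. The SUM149PT count of higher genes was 2 with upper quartile scaling or quantile normalization. The HCC1937 counts were 1 higher without replicate 1 or 2 of the non-CSCs and 0 lower at an expression minimum of 1 FPKM. AXIN2, a target of Wnt signaling, rose by 2.14 and 0.83, and its HCC1937 call was lost without any 1 of 4 libraries (adjusted p up to 0.082). RNF43, a ligase that removes Wnt receptors, fell (-0.80 and -1.92). LGR4, the relative of LGR5, was at 6.15 ± 0.24 FPKM (SD, n = 3) in SUM149PT CSCs and 16.6 ± 1.32 (SD, n = 3) in non-CSCs, and moved the other way in HCC1937 (log2 fold changes -1.41 and 0.72).

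Of 8 further markers of mesenchymal stromal cells, 5 of 7 tested were higher and 2 lower in SUM149PT CSCs (median 2.21), and 3 of 4 were higher and 0 lower in HCC1937 CSCs (median 0.41). ITGB1, an integrin subunit, rose by 0.73 and 0.51, from 81.6 to 135.7 FPKM in SUM149PT. CD24, THY1 and NT5E carry GPI anchors, and of 13 genes that make or remodel the anchor, 3 were higher and 7 lower in SUM149PT CSCs (median -0.35), and 2 higher and 4 lower in HCC1937 CSCs (median -0.05). PGAP1, which removes an acyl chain from the anchor, rose by 0.96 and 0.98, PIGL (-0.63 and -0.58) and PGAP2 (-0.79 and -0.58) fell, and PIGK, part of the transamidase, was at -0.42 and 0.85. PGAP3 was at -0.35 and -0.47, and its SUM149PT call was lost after quantile normalization (0.04, adjusted p = 0.748), with the replicate block (0.0662) and without replicate 1 of either fraction (adjusted p = 0.0546 and 0.0518).

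**Figure D5:**
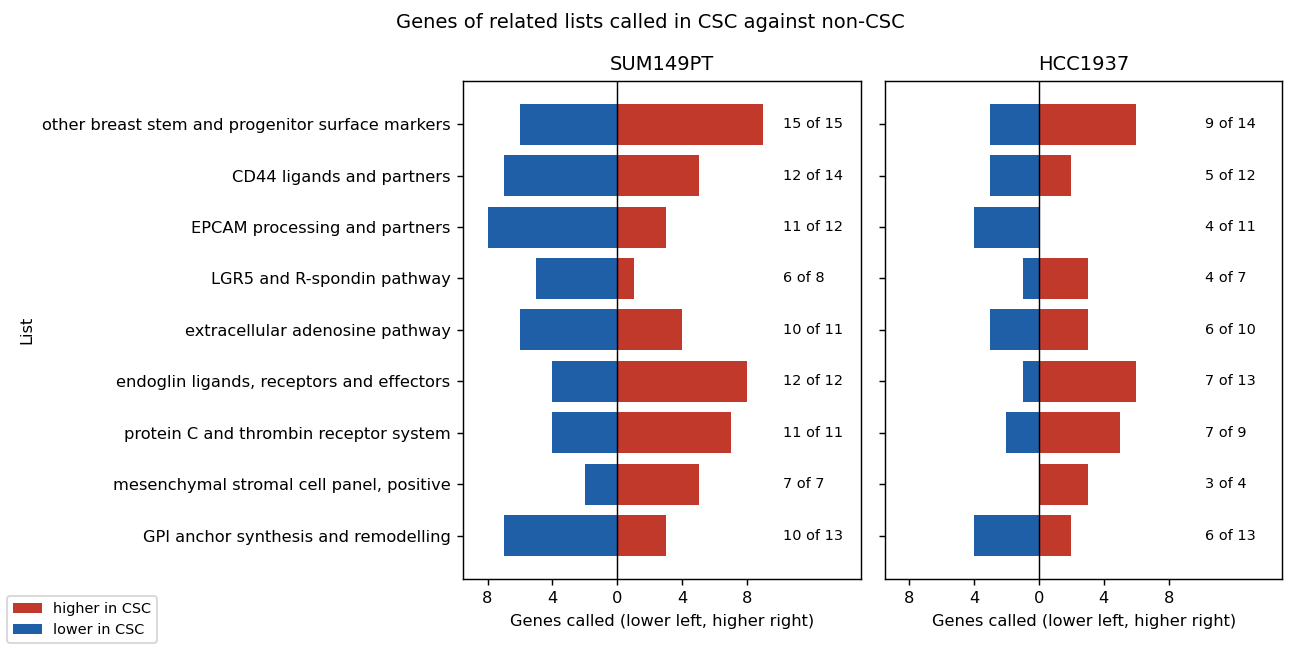
Number of genes of each list called higher (bars to the right) or lower (bars to the left) in CSCs than in non-CSCs at a limma adjusted p of at most 0.05, with the number called of those tested at the right of each panel. The EPCAM list has 3 genes higher and 8 lower in SUM149PT, and 0 and 4 in HCC1937. The protein C list has 7 higher and 4 lower in SUM149PT, and 5 and 2 in HCC1937. Over all genes, 33.3% were called higher and 41.5% lower in SUM149PT, and 10.3% and 15.3% in HCC1937. The counts include genes that passed the expression minimum only through the fraction where they were high.

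The genes whose levels most resembled each member were taken by Pearson's correlation of log2(FPKM + 0.1) over the 15 libraries, among 13839 genes. Libraries of a group share cells and scaling, so these are descriptions of 5 groups. CD24 was closest to ST14 (r = 0.997), INADL (0.997) and EPHB3 (0.996), and EPCAM to the noncoding RNA UCA1 (0.999), ESRP1 (0.997) and CDH3 (0.996). The r of these genes was 0.987 or more over the 12 sorted libraries alone, an alternative chosen after seeing the data.

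NT5E was closest to ARHGAP18 (0.996), EREG (0.995) and RGMB (0.995), PROCR to CRTAP (0.993), MMS19 (0.989) and CERS2 (0.988), and CD44 to HNRNPA3 (0.997), CCT2 (0.996) and USP1 (0.996). For ENG the values were lower, with MGAT1 (0.979), PTDSS1 (0.973) and TIMM50 (0.969). THY1 followed SIRT3 (0.987), RPS18P12 (0.986) and MRPL10 (0.984), but this rested on SUM159PT, as r fell to 0.707, 0.694 and 0.677 over the 12 sorted libraries. Between the members, CD24 and EPCAM had an r of 0.989 over the 15 libraries. PROCR had an r of -0.992 with EPCAM and -0.982 with CD24.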

How the data were processed

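The values are FPKM as deposited by the authors. According to the submitters' processing notes, reads were aligned to GRCh38 with Bowtie2; the quantification tool is not given in the sources used here. Levels were read by gene symbol, and members and lists were chosen with earlier results of these data known.

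Fits used limma 3.58.1 in R 4.3.3 on log2(FPKM + 0.1), leaving out genes whose mean over the fitted libraries was under 0.1 FPKM, with Benjamini-Hochberg adjustment over the genes tested. Each sorted line was fitted alone (6 libraries), the difference between lines over 12 libraries, and contrasts between lines over 15. The CD44 to CD24 ratio was compared with an exact two-sided permutation test. List genes called in both lines are named up to 4 a list that moved alike, without overlap of fractions, and 2 that moved oppositely, by the smaller of their fold changes; lists are given as counts and medians, without a test of the list. Tables and figures used Python 3.11.15, pandas 2.3.3, numpy 2.4.6 and matplotlib 3.10.9.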

Additional observations from a re-analysis of the deposited data

Results flagged for a closer look

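The CSC effect, as a log2 fold change, differed in size between SUM149PT and HCC1937 for the 6 members tested (limma, adjusted over the genes tested), as it did for 61.1% of 16451 genes. EPCAM fell more in SUM149PT, by -2.21, and CD24 by -1.48. PROCR rose more in SUM149PT, by 1.32, and NT5E by 1.05. The ENG effect, which did not pass the test in SUM149PT alone, differed by -0.48. CD44 rose more in SUM149PT, by 0.27, a difference that did not pass after TPM rescaling or quantile normalization, nor without any 1 of 4 libraries.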

How the results depend on the processing

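Between the non-CSC groups, HCC1937 minus SUM149PT, the sign turned for CD24 under upper quartile scaling (-0.02), quantile normalization (-0.00), TPM rescaling (-0.06) and removal of the GC trend (-0.01). It turned for PROCR under the same settings (-0.01, -0.05, -0.06 and -0.02) and, at levels near 0, for THY1 under quantile normalization (0.07), whose tests between lines are not used because SUM159PT alone took it past the expression minimum. For SUM159PT minus HCC1937 CSC, ENG turned under TPM rescaling (-0.75) and removal of the GC trend (-0.16). In SUM149PT, quantile normalization turned DPP4 (0.00) and PGAP3 (0.04). The cause was not tested.

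With a log2 fold change of 1 also required, 3 members were called in HCC1937 CSCs, 1 of them higher, beside 8.71% of genes. With an adjusted p of 0.0001 also required, 0 were called higher and 0 lower there, beside 0% of genes. CD24 and EPCAM passed under 4 of the alternatives and NT5E under 2, where the share of all genes was not counted. In SUM149PT, PROCR, NT5E, CD24 and EPCAM passed these cutoffs, beside 20.5% of genes. They did not pass with the replicate block (limma adjusted p from 0.000339 to 0.000446), where that share was not counted either. With a pseudocount of 1 FPKM the log2 CD44 to CD24 ratio differed by 4.39 in SUM149PT.

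With the replicate number as a replicate block, 5094 genes were called higher and 6398 lower in SUM149PT CSCs, and 1161 and 1905 in HCC1937 CSCs. Leave-one-out fits gave ranges of -4.18 to -4.12 for CD24 and 2.51 to 2.63 for NT5E in SUM149PT, and -2.72 to -2.60 and 1.43 to 1.62 in HCC1937. An arm with 2 libraries left relies on the pooled spread. The sum of CD24 and its copies and the 12-library correlations were added after seeing the data.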
